A study of Mus musculus with 4 samples.

Results

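The Pramel genes are mouse genes of the family of human PRAME, a germline antigen that many tumours express. They were examined here in chromatin immunoprecipitation sequencing (ChIP-seq) data on IgD in pro-B cells. Members were the protein-coding RefSeq genes on chromosomes 1 to 19 of mm10 (GRCm38) whose symbol is Pramel followed by a number. This gave 45 genes of 20558 protein-coding genes on those chromosomes. For each member, peaks that overlapped the gene or the 10000 bp on either side of it were taken from the deposited lists. The family was chosen by these same peak calls, since some of its genes lie in broad peaks of both lists, so the counts below describe it and carry no test.

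Pro-B cells, an early bone marrow stage of B cell development, were sorted from wild-type (WT) mice as B220+ CD43+ IgM- cells. Chromatin was sonicated and precipitated with an antibody labelled anti-ms IgD in 2 libraries and with ms IgG as control in the other 2. The submitters called peaks of IgD1 over IgG1 (here pair 1, 11375 peaks) and of IgD2 over IgG2 (here pair 2, 40628 peaks). The control therefore enters only through those calls, and fold, p and q of a peak are the authors' own values. All groups shared the genotype and the cell type. Strain, sex and age of the mice are not given in the labels, nor is it stated whether the pairs came from separate animals. Peak lists hold no expression values, so the sorted cells could not be checked against the markers of their stage.

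PRAME family proteins are built from leucine-rich repeats. Several act as substrate receptors of ubiquitin ligases assembled on cullin 2, and human PRAME is known as a repressor of retinoic acid receptor signalling. In mice the family has expanded into tandem arrays expressed mainly in testis, oocytes and early embryos. Pramel7 acts in the early embryo and in pluripotent stem cells, where it directs degradation of UHRF1, a factor that maintains DNA methylation.

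The members fell into 6 groups along the genome when neighbours up to 500 kb apart were joined. Chromosome 4 carried the largest, with 20 genes between 143394441 and 144408467. Chromosome 5 carried 18 genes between 93481827 and 95736173. A pair, Pramel7 and Pramel6, lay on chromosome 2 from 87489088 to 87510865. The others were Pramel17, Pramel18 and Pramel19 on chromosome 4 from 101834969 to 101943183, Pramel32 alone on chromosome 4 from 88627320 to 88634186, and Pramel51 on chromosome 12 from 88175589 to 88181894. Members had a median length of 6.31 kb, against 17.6 kb for all protein-coding genes, and ranged from 2.70 to 60.7 kb. Of the 18 genes on chromosome 5, 10 rested on predicted transcripts alone, against 0 of the 20 in the large chromosome 4 cluster.

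A few sets of members are nearly identical before their starts, and the sequences that follow were chosen because such copies lay on opposite sides of a peak call. RefSeq promoters of build GRCm38.p6 were found for 36 of the 45 members, and each sequence below is the 250 bases that end just before the annotated start. On chromosome 5, 6 members (Pramel37, Pramel50, Pramel39, Pramel43, Pramel46 and Pramel49) formed a set in which each of the 15 pairs was 92.4% to 100% identical. The median over all 630 pairs of members was 59.6%, and 18 pairs reached 90%. Pramel50 (chr5:95736174-95736423, minus strand) was base for base identical to Pramel37. Capitals in Pramel37 mark the TATA box letters TATAAA, and capitals in the next 4 mark bases that did not match Pramel37 in 1 optimal alignment. Bases of Pramel37 without a match are not shown.
Pramel37 (chr5:94070546-94070795, minus strand): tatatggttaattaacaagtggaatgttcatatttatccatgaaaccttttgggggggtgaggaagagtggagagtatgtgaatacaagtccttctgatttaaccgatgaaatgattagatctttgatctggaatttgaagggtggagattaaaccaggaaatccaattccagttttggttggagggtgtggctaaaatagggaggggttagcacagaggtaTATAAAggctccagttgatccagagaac
Pramel39 (chr5:94306797-94307046, minus strand): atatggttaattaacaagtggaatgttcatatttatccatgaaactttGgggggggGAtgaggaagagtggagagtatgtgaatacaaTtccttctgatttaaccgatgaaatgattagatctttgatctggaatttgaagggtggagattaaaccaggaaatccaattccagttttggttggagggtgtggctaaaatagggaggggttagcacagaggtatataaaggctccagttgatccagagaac
Pramel43 (chr5:94616341-94616590, minus strand): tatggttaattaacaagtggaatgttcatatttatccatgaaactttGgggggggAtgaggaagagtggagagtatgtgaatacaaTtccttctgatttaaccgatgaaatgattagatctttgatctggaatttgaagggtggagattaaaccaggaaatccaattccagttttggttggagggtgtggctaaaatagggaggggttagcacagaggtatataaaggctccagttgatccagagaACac
Pramel46 (chr5:95272756-95273005, minus strand): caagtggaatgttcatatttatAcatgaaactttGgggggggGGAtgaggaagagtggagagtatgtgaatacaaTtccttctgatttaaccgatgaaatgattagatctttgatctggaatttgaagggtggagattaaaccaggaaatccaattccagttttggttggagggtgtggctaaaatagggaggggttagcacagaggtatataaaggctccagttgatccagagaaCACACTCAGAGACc
Pramel49 (chr5:95594863-95595112, minus strand): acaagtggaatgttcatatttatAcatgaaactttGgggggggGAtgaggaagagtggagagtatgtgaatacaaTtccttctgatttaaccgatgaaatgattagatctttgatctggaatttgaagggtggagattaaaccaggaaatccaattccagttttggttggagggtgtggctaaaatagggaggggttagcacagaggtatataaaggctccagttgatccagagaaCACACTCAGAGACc
Against Pramel37, the alignment of Pramel39 held 2 substitutions and 2 bases without a partner, and that of Pramel46 held 3 substitutions and 16 such bases. Most of the unmatched bases of Pramel46 and Pramel49 stood in 1 run near the start. TATAAA began 28 bases before the start in Pramel37 and 41 bases before it in Pramel46. The windows thus end at different points, and sequence past the annotated starts was not compared. Unmatched bases at the ends of a window may therefore be present in the other gene, and identity depends on the annotated starts.

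A second such set lay on chromosome 4. Pramel14 and Pramel30 were 97.6% identical over the 250 bases, with 5 substitutions and 1 base of Pramel30 without a partner. Each had a peak at its start in one list and not in the other. Capitals in Pramel30 mark the bases that did not match Pramel14.
Pramel14 (chr4:143994370-143994619, minus strand): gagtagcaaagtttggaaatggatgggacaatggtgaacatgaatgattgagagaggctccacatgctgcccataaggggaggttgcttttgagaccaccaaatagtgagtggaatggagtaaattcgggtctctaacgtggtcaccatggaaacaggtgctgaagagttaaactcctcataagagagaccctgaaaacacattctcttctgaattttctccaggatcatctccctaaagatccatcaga
Pramel30 (chr4:144329999-144330248, plus strand): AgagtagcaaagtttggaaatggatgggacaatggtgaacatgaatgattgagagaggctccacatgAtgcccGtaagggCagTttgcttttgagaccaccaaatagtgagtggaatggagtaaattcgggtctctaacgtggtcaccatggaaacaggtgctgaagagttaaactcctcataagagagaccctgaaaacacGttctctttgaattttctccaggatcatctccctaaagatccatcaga

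Peaks lay within 10000 bp of 22 members in pair 1 (48.9%) and of 24 in pair 2 (53.3%). Among all protein-coding genes on these chromosomes the shares were 8.57% in pair 1 and 50.9% in pair 2. The pair 2 share of the family was therefore close to that of any gene. Both lists had a peak within that distance of 12 members (26.7%, against 6.25% of all genes). Pair 1 alone reached 10 members and pair 2 alone 12, which left 11 with no peak within 10000 bp in either list. For all 20558 genes the same split follows from 1761 with a pair 1 peak, 10456 with a pair 2 peak and 1284 with both. Nothing is read from the split. Since the family was proposed from these lists, nothing is read from its excess over all genes.

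Gene bodies were reached less often. A pair 1 peak overlapped the body of 16 members (35.6%, against 6.20% of all genes), and a pair 2 peak the body of 14 (31.1%, against 34.4%). In both lists the body was reached for 7 members. These were Pramel5 on chromosome 4 and Pramel36, Pramel38, Pramel41, Pramel45, Pramel46 and Pramel47 on chromosome 5. No share of all genes was taken for this count, and nothing is read from it. The body of 10 members, all on chromosome 5, was reached by a peak that overlapped a peak of the other list (22.2%, against 1.69% of all genes).

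The 2 large clusters differed in the width of their peaks, in pair 1 more through the widest peaks than through the median. In the large chromosome 4 cluster the peaks near members were 573 to 1126 bp wide in pair 1 (12 peaks, median 743 bp) and 548 to 2539 bp wide in pair 2 (26 peaks, median 766 bp). On chromosome 5 they ran from 492 to 476619 bp in pair 1 (26 peaks, median 1063 bp) and from 555 to 435607 bp in pair 2 (11 peaks, median 35868 bp). There, 7 of the 26 and 8 of the 11 were 5000 bp or wider, against 9.52% and 3.19% of the whole lists. No peak near a member outside that cluster reached this width. Peaks of 5000 bp or wider reached the body of 10 members in pair 1 (22.2%, against 1.02% of all genes) and of 8 in pair 2 (17.8%, against 1.20%). A peak narrower than 5000 bp lay within 10000 bp of 14 members in pair 1 (31.1%, against 7.89%) and of 15 in pair 2 (33.3%, against 50.1%).

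**Figure D1:**
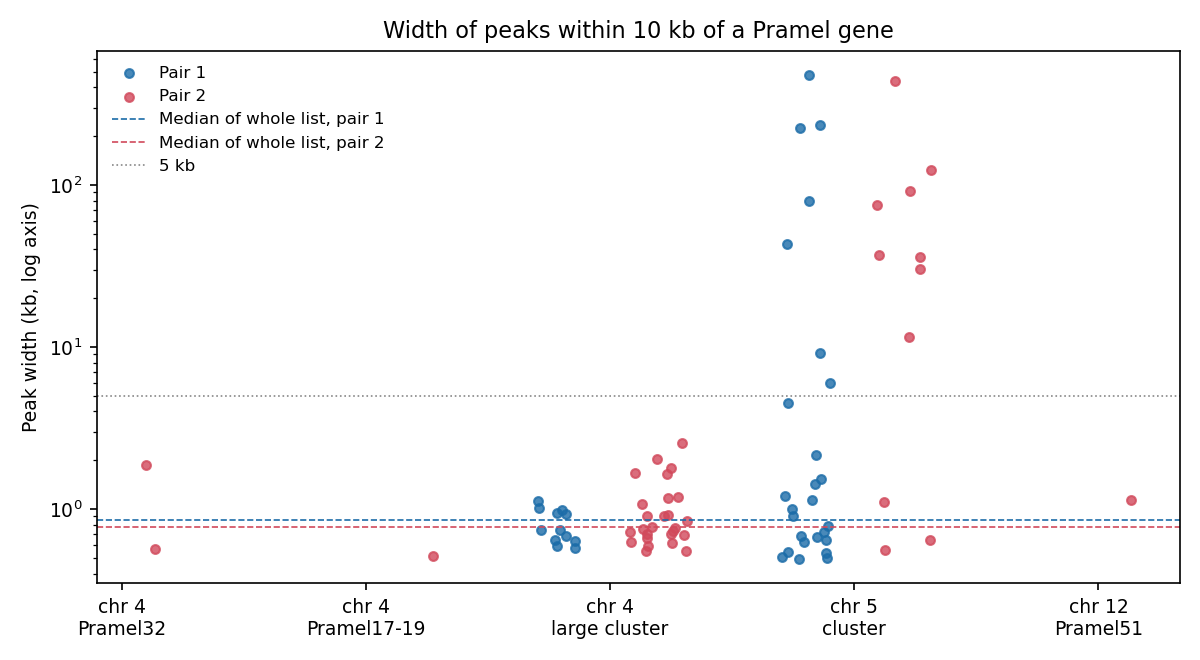
Width in kb (log axis) of each deposited peak within 10 kb of a Pramel gene, by gene cluster and peak list, with random sideways shifts to separate the points. Dashed lines are the median widths of the whole lists and the dotted line is 5 kb. Only the chromosome 5 cluster holds points above 5 kb, 7 in pair 1 and 8 in pair 2.

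On chromosome 5, pair 1 peaks covered 55.9% of the cluster and pair 2 peaks 46.5%, and the broad peaks stood in its middle. The zone from the first to the last peak of 5000 bp or wider ran from 93883510 to 95333099 (1450 kb), of which pair 1 peaks covered 83.5%, pair 2 peaks 71.6% and both together 59.8%. Of the zone, 4.64% lay in no peak of either list. Over the whole chromosome, peaks covered 2.23% of the sequence in pair 1 and 2.95% in pair 2. The 12 members from Pramel36 to Pramel47 lay in this zone, Pramel47 only in part, and each was reached by a peak of 5000 bp or wider in at least 1 list. By the way the zone was drawn, no such peak reached the 3 members before it (Pramel33, Pramel34 and Pramel35) or the 3 after it (Pramel48, Pramel49 and Pramel50), and its coverage is a description of those peaks.

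**Figure D2:**
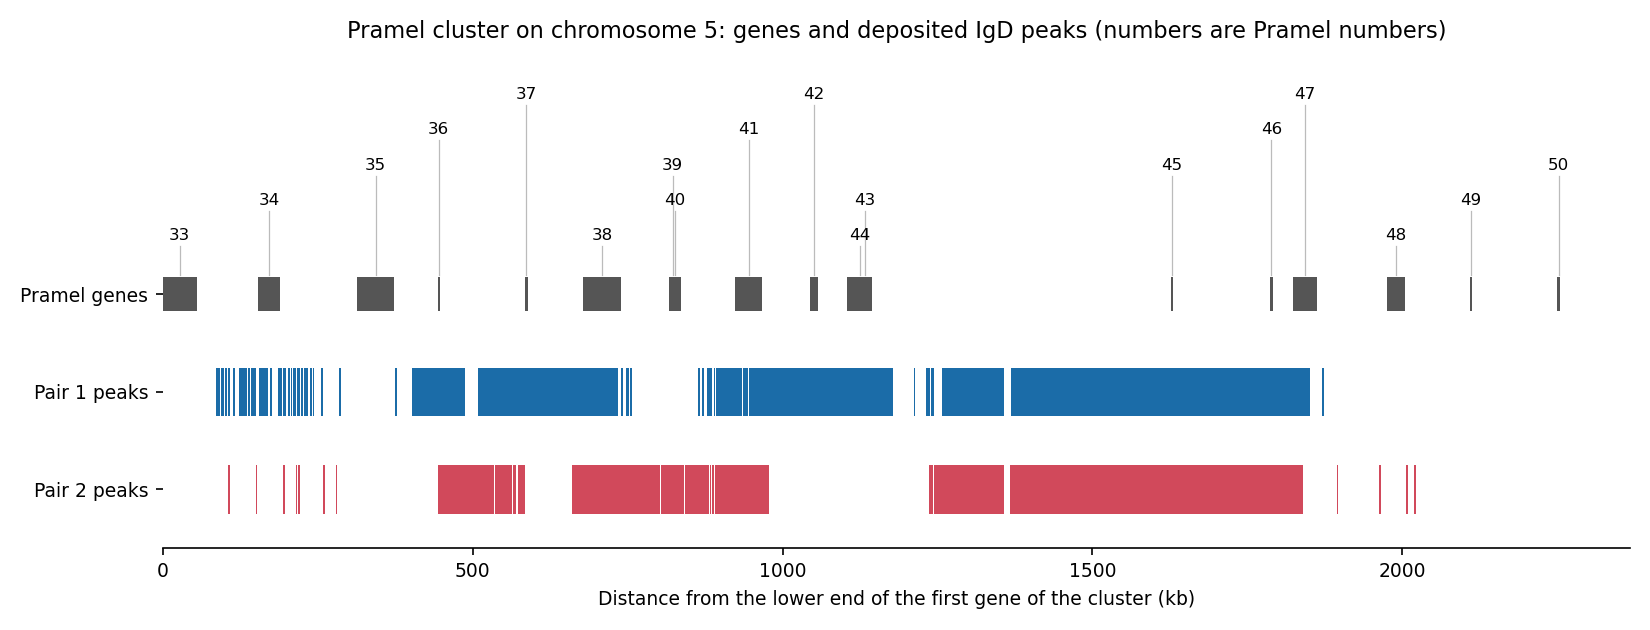
Map of the chromosome 5 cluster, with distance in kb from the lower end of Pramel33, the first gene, on the horizontal axis. Grey boxes are the 18 Pramel genes, labelled by number, and blue and red boxes are the deposited peaks of pair 1 and pair 2, clipped to the cluster, with short features drawn at a minimum width. The long boxes of both lists stand over the 12 genes from Pramel36 to Pramel47, and a stretch over Pramel42 to Pramel44 is covered in pair 1 and open in pair 2.

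Within that zone the lists agreed at 6 members, where a peak of 5000 bp or wider reached the gene in both (6 of 45 members, 13.3%, against 0.652% of all genes). Genes that lay wholly inside 1 peak numbered 7 in pair 1 (15.6%, against 0.623% of all genes), 6 in pair 2 (13.3%, against 0.710%) and 2 in both (4.44%, against 0.350%). The last 2 were Pramel45 and Pramel46, which rest on predicted transcripts. The pair 1 peak ran from 94849616 to 95326234 (477 kb) and the pair 2 peak from 94848617 to 95284223 (436 kb). Their lower edges differed by 999 bp and their upper edges by 42.0 kb. They overlapped over 435 kb, which was 91.2% of the pair 1 peak and 99.8% of the pair 2 peak. By width they ranked 7 in pair 1 and 15 in pair 2.

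A peak's fold refers to its summit, the single highest point. In the long block over Pramel45 and Pramel46 the summit had a fold of 5.59 in pair 1, from 20 IgD fragments (95% exact Poisson interval 12.2 to 30.9), and of 6.09 in pair 2, from 23 fragments (14.6 to 34.5). The summits lay 40.5 kb apart, and neither was inside a Pramel gene. The fold refers to the summit and is not a level over Pramel45 or Pramel46. Fragment numbers were solved from the deposited fold and p-value on the assumption that the IgD fragments were not scaled, and their intervals cover counting error only.

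Pramel47, which extends past the upper end of the zone, was split between peaks. In pair 1 the end of the 477 kb block and a peak of 6003 bp covered 69.9% of its 37.7 kb body. In pair 2 a separate peak of 37.1 kb covered 42.8%. That pair 2 peak had the highest fold near any member, 7.03 from 25 fragments (16.2 to 36.9), which ranked 903 in its list.

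Pramel38, a gene of 60.7 kb, held the summits of the broad peaks over it in both lists. Its pair 1 peak spanned 226 kb (fold 6.66, 24 fragments, 15.4 to 35.7) and covered 92.2% of the gene. The pair 2 peak spanned 123 kb (fold 6.49, 23 fragments, 14.6 to 34.5) and covered the gene completely. The summits lay 3010 bp apart. The intervals of the fragments overlapped almost fully, but each belongs to the highest point of a called peak. Their overlap is therefore no measure of how well the pairs match.

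Pramel36 and Pramel41 were covered almost throughout in both lists. At Pramel36 the peaks were 79.3 kb wide in pair 1 (fold 3.73, 13 fragments, 6.92 to 22.2) and 91.4 kb wide in pair 2 (fold 3.78, 13 fragments), with 100% and 97.0% of the gene covered. Their summits lay 92.8 kb apart. At Pramel41, pair 1 had 3 peaks of 43.2, 9.13 and 233 kb that left small gaps and covered 96.0% of the gene, with folds of 5.59, 4.26 and 4.53. Pair 2 had 1 peak of 75.6 kb over the whole gene with a fold of 5.95 from 21 fragments (13.0 to 32.1).

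At the remaining 6 genes of the zone a broad peak was called in 1 list alone. Pramel37, Pramel42, Pramel44 and Pramel43 lay wholly inside pair 1 peaks. For the last 3 this was the 233 kb peak from 94427614 to 94660225 (fold 4.53, 16 fragments, 9.15 to 26.0), of which pair 2 peaks overlapped 14.0%. The nearest pair 2 peaks were 66.1 kb from Pramel42, 91.6 kb from Pramel44 and 102 kb from Pramel43. Pramel37 differed, since a pair 2 peak of 11.5 kb ended 786 bp below it.

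Pramel40 and Pramel39, which lies within it on the opposite strand, showed the reverse. Both lay wholly inside a pair 2 peak of 35.9 kb (94287271 to 94323138, fold 4.60, 16 fragments, 9.15 to 26.0). The nearest pair 1 peaks were 28.0 kb from Pramel40 and 38.4 kb from Pramel39. No peak of pair 1 overlapped that pair 2 peak.

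**Figure D3:**
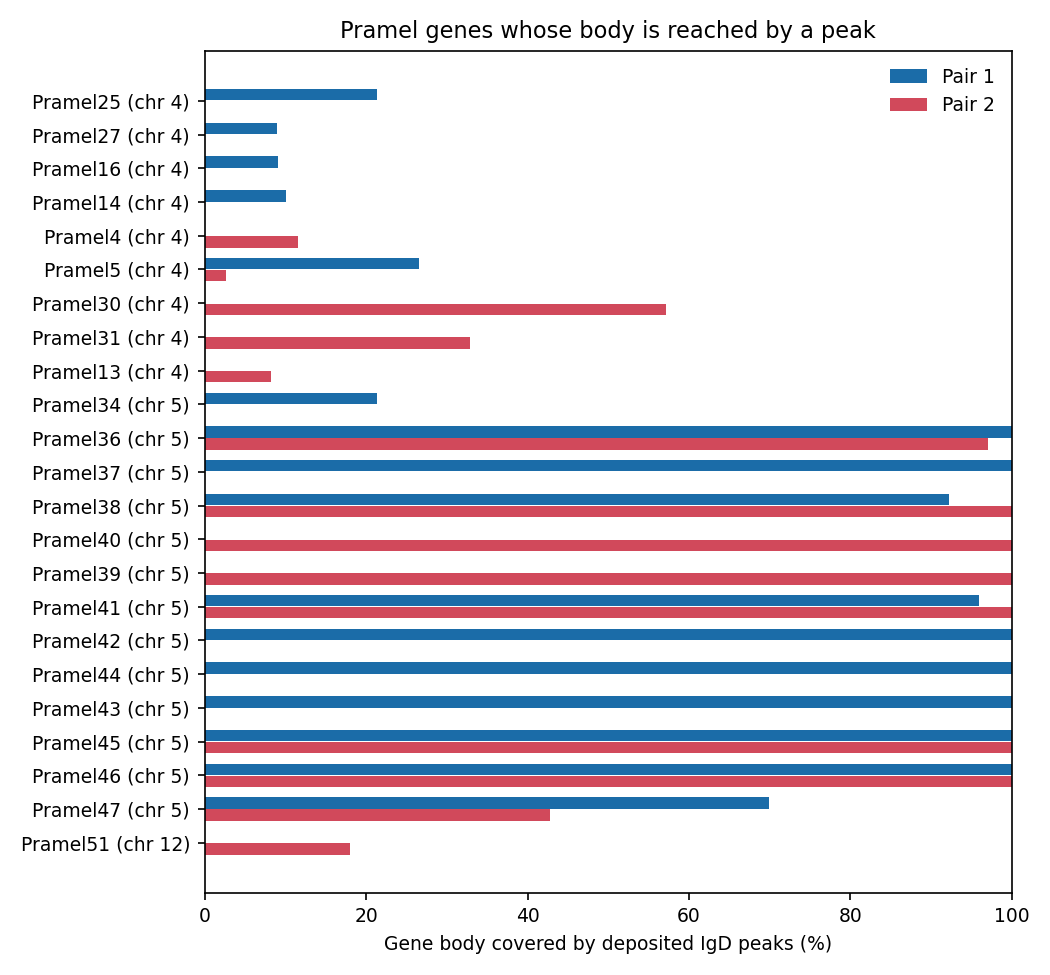
Share of each gene body covered by deposited IgD peaks in percent, for the 23 members reached by a peak in either list, in chromosome order, with pair 1 in blue and pair 2 in red. On chromosome 5 most bars are near 0 or 100%, while on chromosome 4 the highest is 57.1%, at Pramel30 in pair 2.

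Of the 18 pairs of members with upstream sequence at least 90% identical, 14 differed in the lists in which a peak of 5000 bp or wider reached the gene, and 4 did not. The 4 were Pramel37 and Pramel43, both reached in pair 1 alone, and 3 pairs with no such peak (Pramel14 and Pramel30, Pramel33 and Pramel35, Pramel49 and Pramel50). The pairs share genes and are not independent. Pairs of lower identity were not tallied in this way, so nothing is read from the count about near-identical copies. The upstream sequence shared by Pramel37 and Pramel50 lay inside a 226 kb peak at Pramel37 in pair 1, and at Pramel50 no peak of either list overlapped it. The nearest peaks to Pramel50 were a narrow one of 536 bp in pair 1, 4986 bp away, and one 108 kb away in pair 2. Pramel46 and Pramel49, 99.6% identical, were inside broad peaks of both lists and 89.4 kb from the nearest peak of either list, in that order. Pramel39 and Pramel43, 99.2% identical, were inside a broad peak of pair 2 only and of pair 1 only.

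Before the zone, 402 kb held 44 pair 1 peaks and 7 pair 2 peaks, which covered 12.2% and 1.72% of the sequence. Pramel34, in that stretch, had 14 pair 1 peaks within 10000 bp, the most of any member. Of these, 10 overlapped its body and covered 21.3% of its 36.3 kb, with widths of 492 to 2140 bp over all 14 and folds up to 3.99. In pair 2 it had 2 peaks, both outside the gene. One of them overlapped a pair 1 peak, with summits 198 bp apart and folds of 2.93 in pair 1 (10 fragments, 4.80 to 18.4) and 3.78 in pair 2 (13 fragments, 6.92 to 22.2).

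The other flank was nearly empty. After the zone, 403 kb held 1 pair 1 peak, of 544 bp and 8523 bp above Pramel47, and 4 pair 2 peaks. Pramel48 had a pair 2 peak 2751 bp away (fold 4.87) and none within 10000 bp in pair 1. The pair 1 peak near Pramel50 (fold 3.20) lay beyond the cluster. Pramel49 had no peak within 10000 bp in either list, nor did Pramel33 at the lower end of the cluster. Pramel35 had a pair 1 peak 909 bp away (fold 3.20) and none in pair 2.

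In the large chromosome 4 cluster the peaks were short, with medians of 823 bp in pair 1 and 758 bp in pair 2. The whole lists had similar medians, 856 and 774 bp. The span of 1014 kb held 18 pair 1 peaks and 40 pair 2 peaks, or 17.8 and 39.4 per Mb, against 4.89 and 17.7 per Mb over chromosome 4. They covered 1.47% and 3.82% of the span, against 2.27% and 3.47% of chromosome 4. The share of overlapping peaks in the whole lists was not taken, so nothing is read from how often the lists met here. A single pair of peaks overlapped, between Pramel31 and Pramel15. The pair 1 peak (144371550 to 144372122) had a fold of 4.79 from 17 fragments (9.90 to 27.2), and the pair 2 peak (144371215 to 144371909) a fold of 2.97 from 10 (4.80 to 18.4). The summits were 369 bp apart, and neither peak touched a member.

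**Figure D4:**
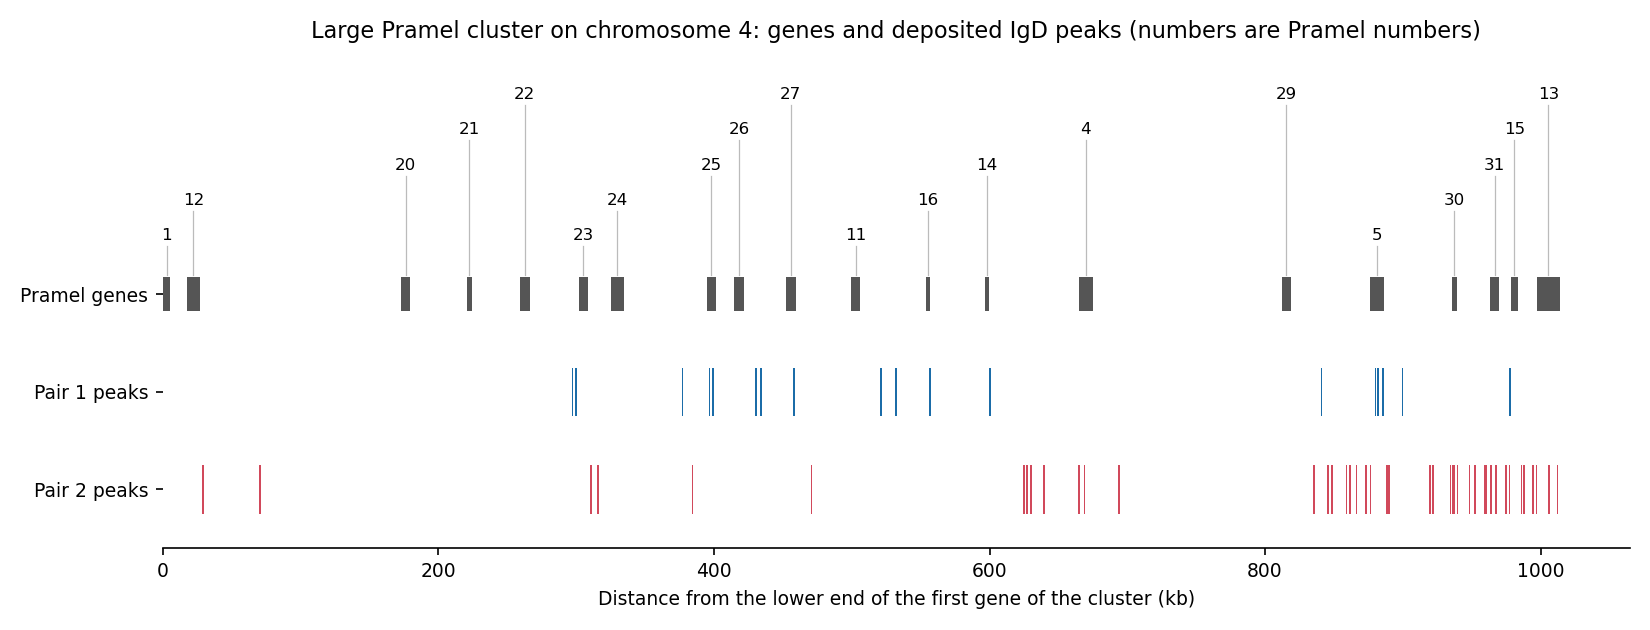
Map of the large chromosome 4 cluster, with distance in kb from the lower end of Pramel1, the first gene, on the horizontal axis. Grey boxes are the 20 Pramel genes, labelled by number, and blue and red bars are the 18 pair 1 and 40 pair 2 peaks, with short features drawn at a minimum width. Pair 1 peaks are scattered from Pramel23 onward, and most pair 2 peaks gather at the right, between Pramel29 and Pramel13.

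Pair 1 peaks overlapped 5 members here, all between Pramel25 and Pramel5. Pramel25 held 2, with folds of 5.06 (18 fragments, 10.7 to 28.4) and 3.99, which covered 21.4% of the gene. Pramel27 held 1 (fold 2.93). At Pramel16 a peak of 1021 bp lay across the annotated start, with a fold of 3.73 from 13 fragments (6.92 to 22.2). At Pramel14 the peak across the start had a fold of 2.66 from 9 fragments (4.12 to 17.1) and a -log10 q of 1.42, near the limit of the list. Pair 2 called nothing within 10000 bp of any of these 4 genes.

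In pair 2, peaks also overlapped 5 members. Pramel30, the near-identical partner of Pramel14, had a peak of 2028 bp across its start (fold 3.51, 19 fragments, 11.4 to 29.7) that covered 57.1% of the gene, while the nearest pair 1 peak was 35.8 kb away. Pramel31 and Pramel4 had a peak across their starts as well, with a fold of 3.78 in each case from 13 fragments (6.92 to 22.2). Pramel13, also named Pramef12 and known for a role in male germ cells, had 3 peaks in its 16.8 kb body and 6 within 10000 bp, with folds up to 5.41, and the nearest pair 1 peak was 15.4 kb away. None of the 19 members of this cluster with a known strand had its start inside a peak of both lists. On chromosome 5 this held for 3 of 12 (Pramel38, Pramel45 and Pramel46), whose starts lie in peaks 123 to 477 kb wide. No share of all genes was taken for these counts, and nothing is read from them.

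Pramel5 was the member of this cluster with a peak on its body in both lists. Pair 1 placed 3 peaks there, with folds of 3.20, 3.46 and 3.20 from 11, 12 and 11 fragments, over 26.5% of the gene. Pair 2 placed 1 peak at the lower end of the gene over 2.59%, with a fold of 4.33 from 15 fragments (8.40 to 24.7). None of these overlapped another. Pramel23 had 2 peaks in each list within 10000 bp, below the gene in pair 1 (highest fold 5.33) and above it in pair 2 (highest fold 6.76). Pramel31 and Pramel15 also had peaks of both lists within 10000 bp, with the peak between them as the only one in pair 1.

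The other genes of this cluster had peaks near them in 1 list or in none. Pramel26 had 1 in pair 1 (fold 2.80, 8.02 kb away). Pramel1, which is expressed in male germ cells, Pramel12 and Pramel24 had 1 each in pair 2, with folds of 4.60, 4.33 and 6.76. Pramel20, Pramel21, Pramel22, Pramel11 and Pramel29 had none within 10000 bp.

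Small groups held few peaks. Pramel7 and Pramel6, the members best known from pluripotent cells, had none, and the nearest lay 135 kb from Pramel6 in pair 2 and 262 kb from it in pair 1. Pramel32 had 2 pair 2 peaks outside the gene (folds 2.66 and 2.12), and Pramel18 had 1 (fold 2.70). Pramel17 and Pramel19 had none within 10000 bp. Pramel51 carried a pair 2 peak inside the gene (fold 3.51, 12 fragments, 6.20 to 21.0). Pair 1 had no peak near any of these 7 genes. Among members whose count rested on 1 peak, those nearest to the limit of 10000 bp were Pramel1, counted with a pair 2 peak 9439 bp away, and Pramel25, not counted in pair 2 with a peak 10291 bp away.

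Broad peaks on chromosome 5 were not limited to genes named Pramel. Of 11 other protein-coding genes inside the span of that cluster, 7 were reached by a peak of 5000 bp or wider in both lists (63.6%), as were 6 of the 18 Pramel genes (33.3%). Among these 7 were Gm46934 and Gm6346. Of 7 other genes inside the large chromosome 4 cluster, which include Oog2, Oog3 and Oog4, oocyte genes of the PRAME family, 0 had a peak within 10000 bp in either list. The vomeronasal receptor genes Vmn2r, another family in tandem arrays, had such a broad peak in both lists at 0 of 121 genes. They had a peak within 10000 bp at 6.61% in pair 1 and 34.7% in pair 2. These shares are descriptions, and no difference between the sets was tested.

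Upstream sequence shared with other genes differed between the clusters. Each of the 231 words of 20 bases in the 250 bases before a start was looked up, on either strand, upstream of all other genes in the table. All 12 chromosome 5 members with a promoter had at least 71.0% of their words before another gene (median 97.6%). The median was 17.7% for 19 members in the large chromosome 4 cluster and 0% for all 32851 promoters. A share of 50% or more was found for 19 of 36 members (52.8%) and for 5.32% of all promoters. Pramel45 shared every word with Gm46934, and Pramel40 shared 74.0% with Gm6346. Of the 12 chromosome 5 members, 7 were reached by a broad peak and 5 were not, and the 5 had shares of 71.0% to 100%. How reads that fit several copies were placed is not given in the sources used here, and the part of such copies in the broad peaks was not tested.

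**Figure D5:**
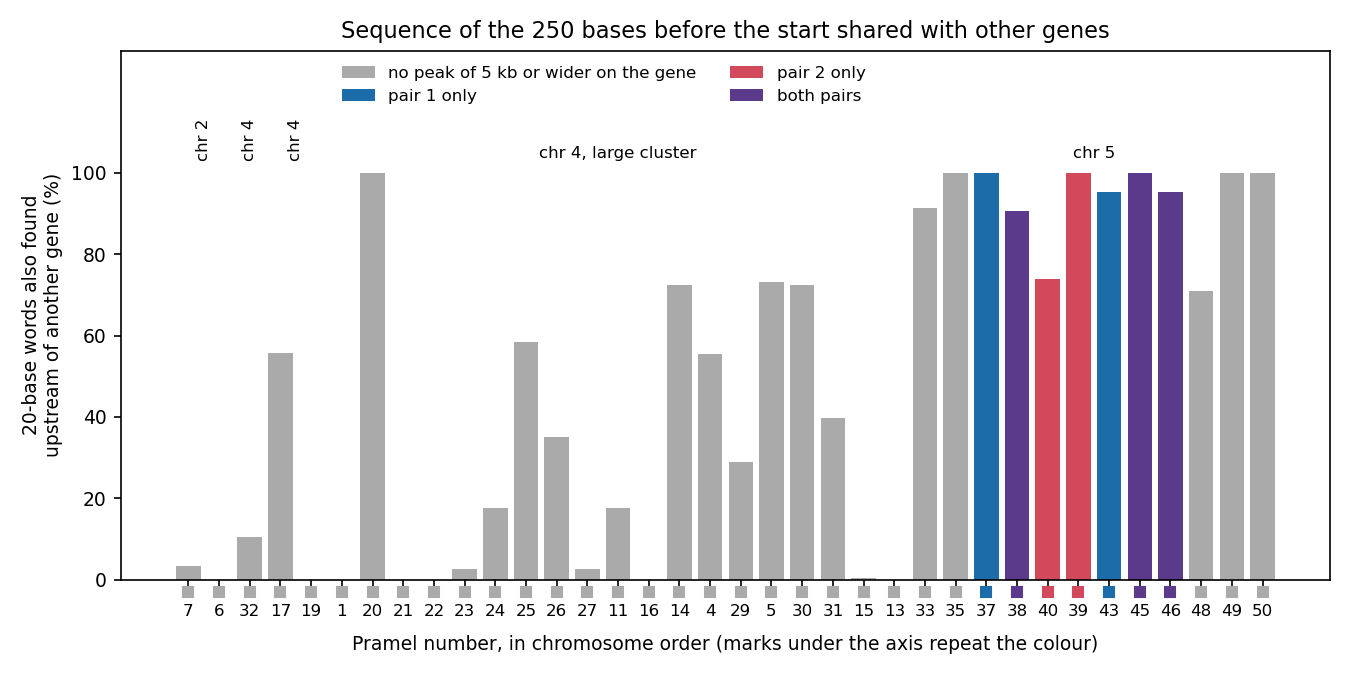
Share in percent of the 20-base words in the 250 bases before each annotated start that also occur before the start of another gene, for the 36 members with a promoter sequence, in chromosome order. Bar colours and the marks under the axis give the lists in which a peak of 5 kb or wider reached the gene. All chromosome 5 bars are at 71.0% or above, those of genes with and without a broad peak alike.

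Promoter letters of the family differed from those of most genes. The 250 bases held a median of 42% G and C and 1 CpG, against 52.4% and 6 for all promoters, and 10 of 36 had no CpG. Pramel1 was the exception, with 18 CpG. TATAAA was present on either strand in 12 of 36 (33.3%, against 12.4% of all promoters of that length) and CCAAT in 19 (52.8% against 33.8%). GGGCGG was present in 1, Pramel1 (2.78% against 32.7%), and CACGTG, which reads alike on both strands, in 0 (6.02% of all). None of these 4 motifs contains another, and a match describes letters and no bound site. On chromosome 5, 7 of 12 held TATAAA, namely the 6 near-identical genes and Pramel45.

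Genes that act with the family, or are active in the same cells, were counted by the same window of 10000 bp. Of 14 partners and DNA methylation genes, 3 had a peak in pair 1 and 10 in pair 2, where the shares of all genes were 8.57% and 50.9%. Rara, which encodes a retinoic acid receptor, was the one with both (folds 3.73 and 5.14). The other pair 1 genes were Dnmt3a, a DNA methyltransferase, and Uhrf1, with folds of 3.20 and 2.96. In pair 2, Rbx1 and Cul2, the RING subunit and the scaffold of cullin 2 ligases, had highest folds of 6.19 and 5.95, and Dnmt1, Dnmt3b, Ezh2, Rarb, Rarg, Tet1 and Tet2 lay between 3.35 and 5.87. None of the 14 had a peak of 5000 bp or wider within 10000 bp. Of 30 other germline and early embryo genes, 4 had a peak in pair 1, 11 in pair 2 and 3 in both, where all genes gave 8.57%, 50.9% and 6.25%. These 3 were Nlrp14, Obox2 and Zscan4b. Usp17le had a peak in pair 1 alone (fold 5.59). Dppa3, Mael, Obox3, Oosp1, Usp17la, Usp17lc, Zscan4c and Zscan4d had peaks in pair 2 alone. Zscan4b, a gene of the earliest embryonic cleavage stages, lay at a broad peak in both lists, 39373 bp wide in pair 1 (fold 6.12) and 279597 bp wide in pair 2 (fold 8.58). Of 6 family genes under other names, 2 had a peak in pair 1, Oog1 and E330014E10Rik, both with a highest fold of 3.73, and 0 had one in pair 2.

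The peaks near members were of ordinary strength for their lists. Their median fold was 3.20 in pair 1 (38 peaks) and 3.78 in pair 2 (41 peaks), and the whole lists had medians of 3.46 and 3.78. A -log10 q of at least 5 was reached by 7 of the 38 (18.4%) and 18 of the 41 (43.9%), against 16.5% and 38.8% of the whole lists. Behind their summits stood 9 to 24 fragments in pair 1 and 9 to 25 in pair 2. The highest fold near a member ranked 63 of 11375 in pair 1. On chromosome 5 the 11 pair 2 peaks near members stood higher than their list, with a median fold of 4.87. A -log10 q of at least 5 was reached by 63.6% of them. Of the 11, 8 were 5000 bp or wider, so their summits are the highest points of long stretches. No comparison with peaks of like width was made, and nothing is read from the difference. The 26 pair 1 peaks on chromosome 5 did not stand higher, with a median fold of 3.20 and 15.4% at that limit.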

How the data were processed

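ChIP-seq peaks of IgD over IgG in sorted pro-B cells were used as deposited. Per the submitters' processing notes, HISAT2, MACS2 and ChIPseeker and the build mm10 were used; the sources used here give no settings, duplicate filters or treatment of reads with several matches. Each list has the 10 narrowPeak columns. The fold enrichment (a ratio of IgD to the background used by the caller at the summit), the -log10 p and the -log10 q are the authors' values for each peak as deposited. The integer score, also deposited by the authors, is 10 times the -log10 q cut to a whole number and entered no result. Peaks reached down to a -log10 q of 1.31 in pair 1 and 1.30 in pair 2. Library totals were not used here.

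Gene positions and promoter sequences came from RefSeq tables of GRCm38.p6, with 348 genes on scaffolds left out. An overlap of 1 bp made 2 peaks shared. The number of fragments at a summit was found by matching the deposited fold and Poisson p within 0.01, with a pseudocount of 1 on fragments and background, for every peak. The background solved in this way was 2.76 at every pair 1 peak of 5000 bp or wider on the chromosome 5 cluster. At most such pair 2 peaks it was 2.70. Where the background is the same, folds differ only through the fragments. The matching was also run on data simulated with the same formula, which cannot test the pseudocount or the assumed lack of scaling. Promoters were aligned globally, with identity over the longer sequence. Words of 20 bases were compared between promoters, and near-identical pairs were tallied by their calls, both added after seeing the data. Members whose body a peak reached in both lists were named with values, others by cluster, with values where a peak lay within 10000 bp, and genes of the other lists where they had such a peak. Members, gene lists and this rule were chosen with earlier results of these data known. Since 1 list per pair exists, no test was run. Alternatives were other windows, stricter thresholds, each pair alone, equal list lengths and stricter overlap. Python 3.11.15, numpy 2.4.6, pandas 2.3.3, scipy 1.17.1, Biopython 1.88 and matplotlib 3.10.9 were used.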

Additional observations from a re-analysis of the deposited data

How the results depend on the processing

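No paired analysis was possible because the deposited calls merge an IgD and an IgG library into 1 list, and no result comes from a test. Members with a peak in both lists numbered 12 of 45 with a window of 10000 bp, 7 for the gene body alone, 25 with a window of 50000 bp, 5 with peaks narrower than 5000 bp only and 7 when the summit had to lie in the window. A single list gave 22 to 24. The pair 1 count of 22 became 13 at a -log10 q of at least 5, 13 at a fold of at least 4 and 14 with narrow peaks. The pair 2 count of 24 became 14 for the gene body alone, 15 with narrow peaks and 13 with pair 2 limited to the length of pair 1. The 10 members reached by overlapping peaks became 3 with 50% reciprocal overlap (Pramel45, Pramel46 and Pramel47) and 1 with summits within 200 bp (Pramel41). The remaining alternatives stayed within 1.5 times the count reported, and the number of clusters was 6 or 7. Each alternative keeps fewer or more peaks by its own construction, and no other cause was tested. With 9 to 25 fragments behind a summit near a member, counting error limits each fold.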

Other observations

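Family members outside the rule were looked up in the same way. On chromosome X, Pramel had a pair 2 peak of 915 bp within 10000 bp (fold 3.24, -log10 q 2.82) and none in pair 1, and Pramel3 and Prame had none in either list. The pseudogene Pramel28, in the large chromosome 4 cluster, had none.

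Pair 2 placed the highest fold inside the large chromosome 4 cluster away from any member, at a peak of 564 bp from 143864542 to 143865105 (fold 7.84, 28 fragments, 95% exact Poisson interval 18.6 to 40.5). It lay 10.9 kb from Pramel27, and pair 1 had no peak there.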
